A study of Rattus norvegicus with 17 samples.

Results

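The 5 genes described here, Scarb1, Vldlr, Lrp1, Lrp8 and Scarb2, encode receptors of the scavenger receptor class B and LDL receptor families, and were taken by gene symbol from the 30560 genes of the deposited counts, each identifier once. All 5 passed the filter on low counts, which kept 18005 genes. RNA came from testes of wild type Sprague Dawley rat fetuses on gestational day 21, after their dams had been given dipentyl phthalate (DPeP), a phthalate ester plasticizer, or corn oil vehicle by gavage in 2.5 mL/kg from gestational day 17. The 17 libraries form 5 dose groups, with 3 libraries for vehicle, 3 at 1 mg/kg/d, 3 at 11 mg/kg/d, 3 at 100 mg/kg/d and 5 at 300 mg/kg/d. Each library held 1 testis or a pool of 2 testes of the same litter, all fetal cell types of the organ included. The labels do not say whether the libraries of a group had different mothers, so the p-values measure the spread between these libraries.

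A steroid-producing cell can make cholesterol itself or take it up from lipoproteins. Scavenger receptor class B type I, the product of Scarb1, binds high-density lipoprotein at the cell surface and takes up its cholesteryl esters without engulfing the particle; in rodents it is abundant in adrenal, ovary and the Leydig cells of the testis, which make androgens. The receptors of the LDL receptor family instead engulf the bound particle, which is broken down in lysosomes. Scarb2 encodes a relative of the Scarb1 protein that sits mainly in the lysosome membrane, so it is a lipoprotein receptor by family more than by its main known role.

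Libraries held between 14282274 and 20323488 gene counts. Levels are in CPM, counts scaled to TMM-adjusted library sizes, or, where genes are compared with each other, in TPM, which also divide by exon length. Among the libraries of 100 mg/kg/d, replicates 05 and 18 stood apart, with 9.05% and 7.76% of counts on mitochondrial genes, against 4.35% to 6.16% in the other 15 libraries. Spearman's rho between level and exon length, taken across genes, which are not independent replicates, was 0.19 and 0.22 in these libraries, 0.22 in vehicle replicate 15 and 0.25 to 0.29 in the other 14.

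Scarb1 was the most abundant of the 5 transcripts, and the only one of them called against vehicle at any dose. Over the 17 libraries the mean level was 468 TPM for Scarb1, 125 TPM for Lrp1, 64.7 TPM for Lrp8, 39.5 TPM for Scarb2 and 13.4 TPM for Vldlr. The mean of Scarb1 was above that of 98.7% of the tested genes and the mean of Vldlr above that of 47.1%. At 300 mg/kg/d 1 of the 5 was called (adjusted p under 0.05), beside 2.4% of all 18005 genes, 1.41% lower and 0.994% higher. The same 1 was called at 100 mg/kg/d, beside 1.52% of all genes, 1.03% lower and 0.494% higher. At 11 mg/kg/d and 1 mg/kg/d edgeR called none of the 5 and no gene at all (0% in each), with 633 and 891 genes at an unadjusted p under 0.05 and 26 and 0 genes called by DESeq2.

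Scarb1 (ENSRNOG00000000981, mRatBN7.2 chromosome 12, 31296156 to 31362647, plus strand) fell at the 2 highest doses. In vehicle testes it was at 1236, 843 and 972 CPM in replicates 01, 08 and 15. At 1 mg/kg/d it was at 1032, 681 and 664 CPM in replicates 02, 09 and 10, and at 11 mg/kg/d at 813, 584 and 717 CPM in replicates 03, 16 and 17. The level was lower with each dose, although vehicle, 1 and 11 mg/kg/d lie close together. At 100 mg/kg/d it was at 280, 334 and 385 CPM in replicates 05, 18 and 19. At 300 mg/kg/d it was at 330, 274, 272, 265 and 195 CPM in replicates 06, 07, 13, 14 and 20. All 8 libraries at the 2 high doses were below all 9 of the other groups, and those of 100 and 300 mg/kg/d overlapped. Against vehicle alone, 12.3% of all genes had groups that did not overlap at 300 mg/kg/d, and 15% at 100 mg/kg/d, in one direction or the other. The share of all genes that separate 8 libraries from 9 in this way was not worked out.

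**Figure D1:**
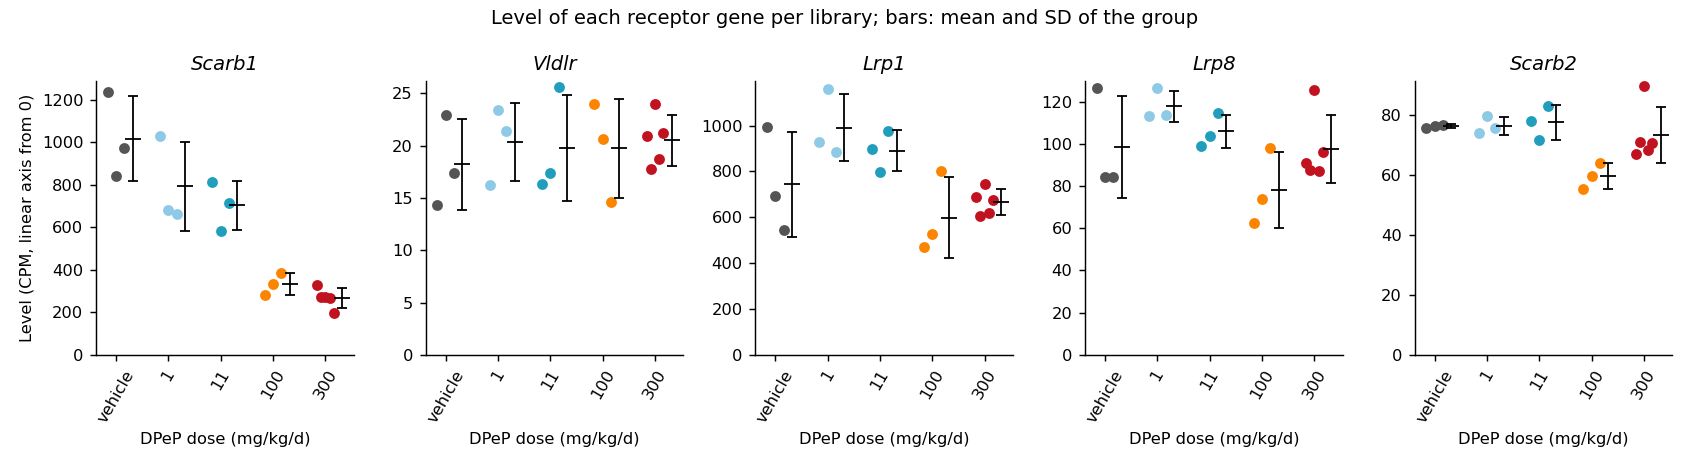
Level of each receptor gene in CPM (linear axes from 0) by DPeP dose in mg/kg/d; each point is a library, and the black mark with its bar is the mean and SD of the group (n = 5 at 300 mg/kg/d, n = 3 in the others). Scarb1 lies between 195 and 385 CPM at 100 and 300 mg/kg/d, and between 584 and 1236 CPM in the other groups; the groups of Vldlr overlap at every dose.

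The mean of Scarb1 was 267 ± 47.8 CPM at 300 mg/kg/d (SD, n = 5) and 1017 ± 201 CPM in vehicle (SD, n = 3). This is a log2 fold change of -1.93 (95% interval -2.28 to -1.57), and edgeR's quasi-likelihood test gave an adjusted p of 7.44e-07. For 100 mg/kg/d the mean was 333 ± 52.4 CPM (SD, n = 3), a log2 fold change of -1.61 against vehicle (95% interval -2.02 to -1.20, adjusted p = 0.000149). Without replicates 05 and 18 the value at 100 mg/kg/d was -1.42 (SE 0.281, edgeR adjusted p = 0.0327), with replicate 19 alone assumed to vary like the other groups. Within the sample codes that the labels give, the log2 ratio of 300 mg/kg/d to vehicle was -1.83 in code S447 (2 libraries and 1) and -2.26 in code S448 (3 libraries and 1). For 100 mg/kg/d it was -1.56 in S447 and -1.89 in S448; code S446 held no library of these doses.

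The steps between doses were unequal. At 11 mg/kg/d Scarb1 averaged 705 ± 115 CPM (SD, n = 3), and each of the 3 libraries was below all 3 vehicle libraries. The log2 fold change was -0.53 (95% interval -0.93 to -0.13), with an unadjusted p of 0.0128 but an adjusted p of 0.992 by edgeR; 12.2% of all genes had groups that did not overlap in this comparison. At 1 mg/kg/d the mean was 792 ± 208 CPM (SD, n = 3), the log2 fold change against vehicle -0.36 (95% interval -0.76 to 0.04, adjusted p = 0.864 by edgeR), and the groups overlapped. The groups at 11 and 1 mg/kg/d overlapped as well.

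Scarb1 fell at 100 mg/kg/d against 11 mg/kg/d as well, with no overlap, as for 17% of all genes in one direction or the other. The log2 fold change was -1.08, with an SE of 0.195 and an edgeR adjusted p of 0.0171; 4.74% of all genes were called in this comparison, 2.15% lower and 2.59% higher. That call was lost in 6 of 23 alternatives, among them without replicate 05 or 18 at 100 mg/kg/d (adjusted p = 0.0773 and 0.102) and without replicate 03 or 17 at 11 mg/kg/d (adjusted p = 0.0827 and 0.0619). It was also lost without both replicates 05 and 18, at -0.88 and an adjusted p of 0.638. From 100 to 300 mg/kg/d the log2 fold change was -0.32 (95% interval -0.68 to 0.04, adjusted p = 0.259 by edgeR), where 0.00555% of all genes, 1 gene, was called and 5.98% had groups that did not overlap. That gene, Cpe, was looked up after its value was seen; it encodes a carboxypeptidase of prohormone processing and was 1.09 higher on the log2 scale at 300 than at 100 mg/kg/d (adjusted p = 0.0143 by edgeR), a call lost in 6 of 23 alternatives. A slope over all 17 libraries gave -0.23 log2 units of Scarb1 per unit of log2(dose + 1) (SE 0.0198, edgeR adjusted p = 8.79e-08), where 5.72% of all genes were called, 2.98% lower and 2.74% higher. Slopes of Vldlr, Lrp1, Lrp8 and Scarb2 were 0.012, -0.056, -0.029 and -0.019, and none of them was called.

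**Figure D2:**
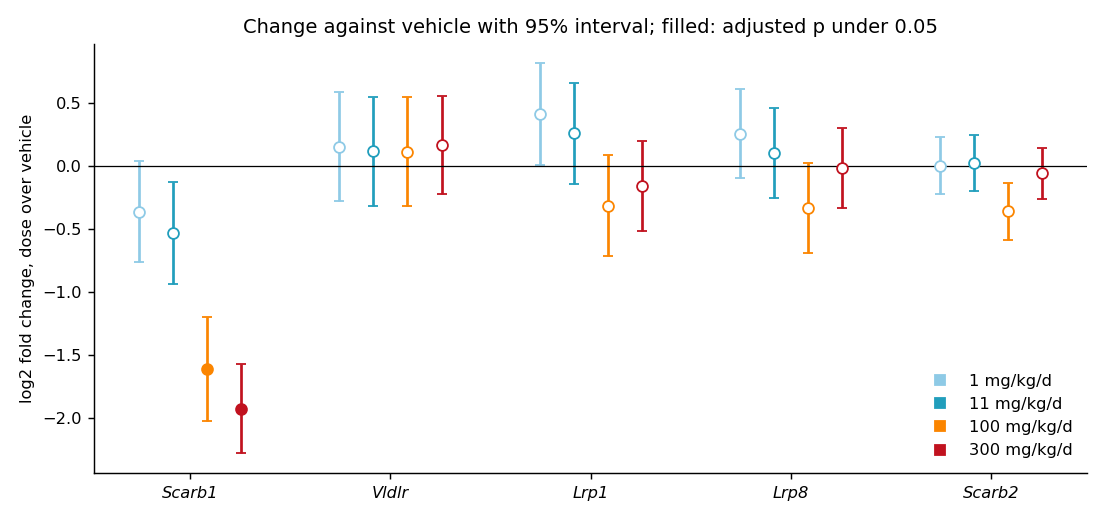
Log2 fold change of each gene at 1, 11, 100 and 300 mg/kg/d over vehicle, with its 95% interval from edgeR's fit of all 17 libraries; filled points have an adjusted p under 0.05. The filled points are those of Scarb1 at 100 mg/kg/d (-1.61) and 300 mg/kg/d (-1.93).

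In bulk testis RNA, fewer cells of a type and less RNA per cell cannot be told apart. Beside Scarb1, the Leydig cell list had 7 of its 7 genes lower and called at 300 mg/kg/d, with a median log2 fold change of -2.02 against 0.010 over all genes. Their summed level was 1593 to 2383 TPM at 300 mg/kg/d, against 5075 to 6305 TPM in vehicle, and no marker was at 0 in any library. Star, which carries cholesterol into mitochondria, changed by -2.09 on the log2 scale (SE 0.181, edgeR adjusted p = 7.33e-07) and Cyp11a1, the enzyme that cuts the cholesterol side chain, one of -1.71 (SE 0.151, edgeR adjusted p = 7.44e-07). In the 100 mg/kg/d group 6 of the 7 fell, with a median of -1.24 against 0.047 over all genes.

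Set against the summed Leydig cell markers of the same library, Scarb1 was lower at both high doses than in vehicle. Per 100 TPM of the 7 markers it had 9.14 to 11.5 TPM at 300 mg/kg/d, against 11.9 to 15.9 TPM in vehicle, and the groups did not overlap. No share over all genes was worked out for this measure. At 100 mg/kg/d it had 5.46 and 5.98 TPM in replicates 05 and 18, the libraries that stood apart. Replicate 19 had 11.7 TPM, just below the lowest vehicle library at 11.9 TPM. The low doses overlapped vehicle, with 11.4 to 14.1 TPM at 1 mg/kg/d and 11.3 to 17.7 TPM at 11 mg/kg/d. Hsd3b1, a steroid dehydrogenase of androgen synthesis, had the highest mean level over all libraries of the 7 markers (1477 TPM). It therefore weighed most in their sum. Its log2 fold change at 300 mg/kg/d was -0.86 (edgeR adjusted p = 0.0368, lost in 7 of 23 alternatives). The median of the 7 markers there was -2.02. Hsd3b1 is named after its value was seen.

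Against 4 single markers, Scarb1 at 300 mg/kg/d overlapped vehicle. The ratio of Scarb1 to Star in TPM was 2.14 ± 0.459 (SD, n = 5) at 300 mg/kg/d and 1.88 ± 0.603 (SD, n = 3) in vehicle, and ranged over 1.59 to 2.73 and 1.46 to 2.57. The ratio of Scarb1 to Cyp11a1 was 0.628 ± 0.0511 (SD, n = 5) at 300 mg/kg/d and 0.757 ± 0.145 (SD, n = 3) in vehicle. The ranges of both ratios overlapped between these groups, as did those for Cyp17a1, an enzyme of androgen synthesis, and Insl3, a hormone of Leydig cells that acts in testis descent. The mean ratio to Cyp17a1 was 0.517 at 300 mg/kg/d and 0.443 in vehicle, and that to Insl3 was 3.82 and 2.67. Mean ratios to Star, Cyp17a1 and Insl3 were thus higher at 300 mg/kg/d than in vehicle, and that to Cyp11a1 was lower. For 100 mg/kg/d the ratio of Scarb1 to Cyp17a1 was 0.238, 0.355 and 0.487 in replicates 05, 18 and 19, so it was lowest in the libraries that stood apart. The ratio to Cyp11a1 was 0.454, 0.581 and 0.593 in these replicates, below the 0.611 to 0.901 of vehicle. It was as low at 1 mg/kg/d, at 0.635, 0.471 and 0.518 in replicates 02, 09 and 10. Its mean was 0.541 at 1 mg/kg/d, 0.697 at 11 mg/kg/d and 0.543 at 100 mg/kg/d, so it did not follow dose. Ratios to Star, Cyp17a1 and Insl3 at 100 mg/kg/d overlapped vehicle. None of these ratios, nor that to the sum, was tested.

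**Figure D3:**
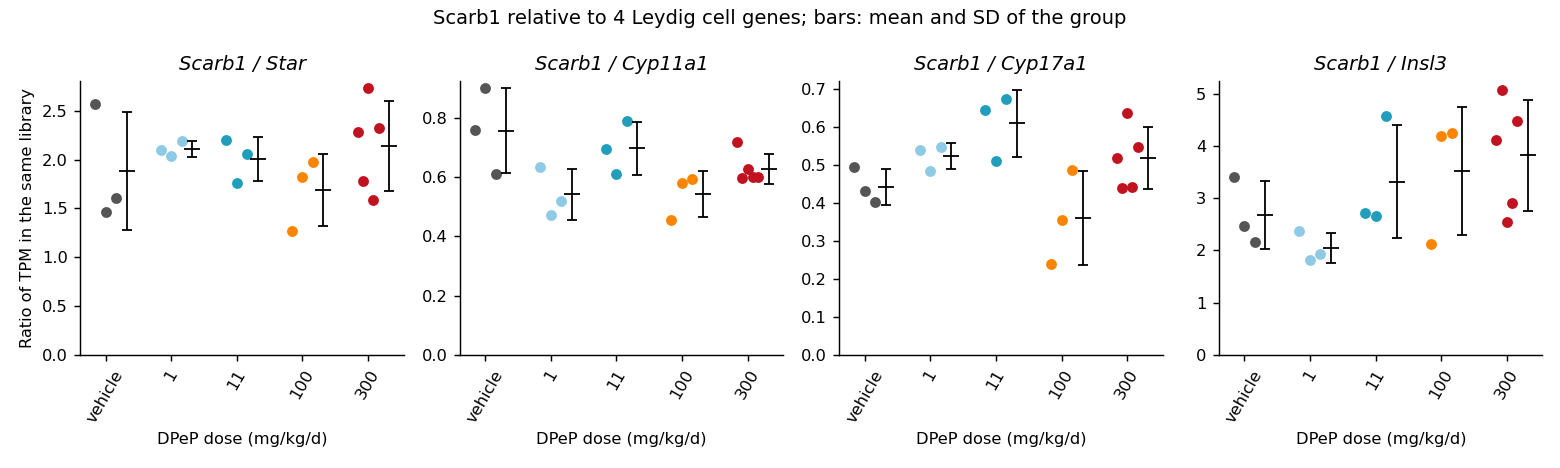
Ratio of Scarb1 to Star, Cyp11a1, Cyp17a1 and Insl3, each in TPM of the same library, by DPeP dose in mg/kg/d; points are libraries and black marks with bars are group means and SD (n = 5 at 300 mg/kg/d, n = 3 in the others). For Star, the libraries span 1.59 to 2.73 at 300 mg/kg/d and 1.46 to 2.57 in vehicle.

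Adrenal cortex, which is also rich in Scarb1, was represented by 4 markers. Mrap, a partner of the corticotropin receptor, and Cyp11b1, an enzyme of corticosterone synthesis, both fell at 300 mg/kg/d, with log2 fold changes of -3.32 and -4.35 (adjusted p = 3.23e-09 and 7.44e-07 by edgeR). The summed level of the 4 markers was 2.16 to 4.15 TPM at 300 mg/kg/d, against 24.3 to 31.6 TPM in vehicle. The defining marker Cyp21a1, the adrenal steroid 21-hydroxylase, had 14 counts over all 17 libraries together and Mc2r, the corticotropin receptor, had 32; both were below the filter. The part of adrenal cells in the Scarb1 value was not tested.

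Genes listed for other cells were called in both directions. Of 7 Sertoli cell markers 3 rose and 1, Inha, fell at 300 mg/kg/d, with a summed level of 3323 to 5999 TPM, against 2446 to 3497 TPM in vehicle. Inha averaged 353 CPM at 300 mg/kg/d and 824 CPM in vehicle, a change in the direction of the Leydig cell list. Which cells the Inha RNA came from was not tested. Of 6 germ cell markers 1 rose, and of 6 macrophage markers 1, Tyrobp, fell, with a macrophage sum of 83.1 to 113 TPM at 300 mg/kg/d and 142 to 162 TPM in vehicle. The calls of Amh, a Sertoli cell hormone, and Nanos2, the germ cell marker, were lost in 4 and 12 of 23 alternatives. None of 6 endothelial, 6 fibroblast and myoid or 3 liver markers was called at 300 mg/kg/d. All 6 endothelial markers had lower values there (median log2 fold change -0.28), and their sum was 173 to 206 TPM, against 208 to 233 TPM in vehicle, with no overlap. Their part in the receptor values was not tested.

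Lrp1 (ENSRNOG00000025053, chromosome 7, 63380356 to 63460910, minus strand) encodes a large endocytic receptor of lipoprotein remnants and many other ligands, and is the longest of the 5, with 14765 exon bases. Its mean was 668 ± 57.1 CPM (SD, n = 5) at 300 mg/kg/d and 744 ± 230 CPM (SD, n = 3) in vehicle, with a log2 fold change of -0.16 (95% interval -0.51 to 0.20, adjusted p = 0.774 by edgeR). The vehicle libraries were spread widely, at 994, 693 and 544 CPM in replicates 01, 08 and 15, and held all 5 values at 300 mg/kg/d, 607 to 747 CPM, between them. Without vehicle replicate 01 the value turned to 0.11, and it stayed uncalled. Within sample code S447, with vehicle replicate 15, the log2 ratio of 300 mg/kg/d to vehicle was 0.31, and within S448, with vehicle replicate 01, it was -0.59.

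In the 100 mg/kg/d group Lrp1 was at 470 and 526 CPM in replicates 05 and 18 and at 800 CPM in replicate 19. These 2 low libraries and vehicle replicate 15, at 544 CPM, were the 3 lowest of all 17 for Lrp1, and also the 3 with the lowest rho between level and exon length. The log2 fold change against vehicle was -0.31 (95% interval -0.72 to 0.09, adjusted p = 0.379 by edgeR), 0.09 without replicates 05 and 18, and -0.58 without replicate 19 (adjusted p = 0.0233). The part of the length relation in these values was not tested. Against 11 mg/kg/d the log2 fold change at 100 mg/kg/d was -0.57 (adjusted p = 0.0775 by edgeR). It was called in DESeq2 (0.0286), with no filter (0.0435) and without replicate 19 (0.00148), and was -0.16 without replicates 05 and 18. At 1 mg/kg/d Lrp1 was at 930, 1158 and 884 CPM, overlapping vehicle, with a log2 fold change of 0.41 (95% interval 0.01 to 0.82, adjusted p = 0.864). Its slope on log2(dose + 1) was -0.056 (95% interval -0.10 to -0.01, adjusted p = 0.125 by edgeR). That slope was called without vehicle replicate 15, at -0.073 (adjusted p = 0.0289).

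**Figure D4:**
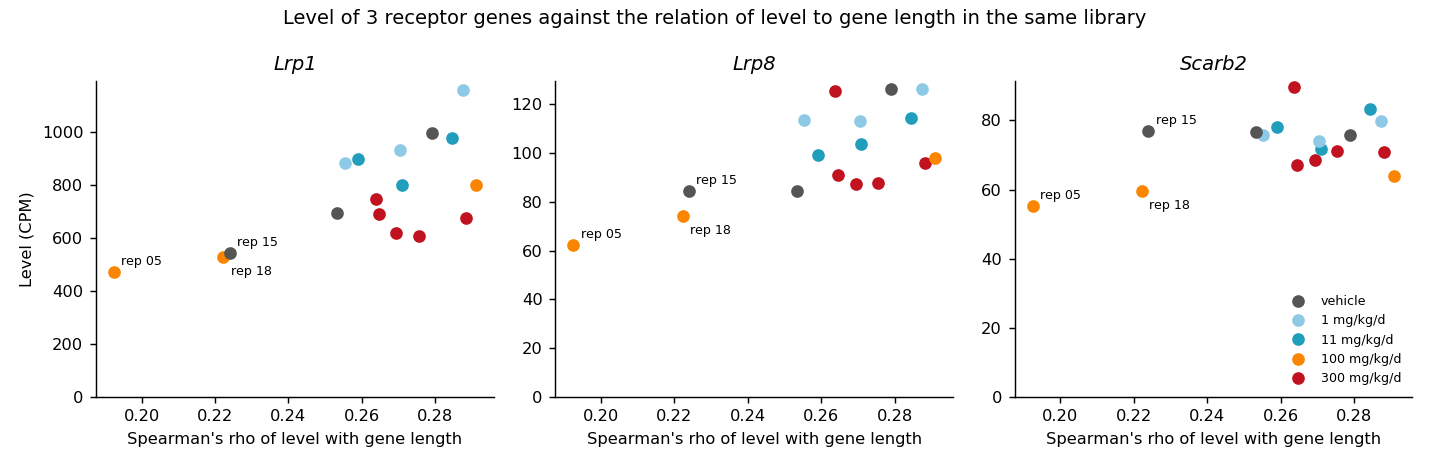
Level of Lrp1, Lrp8 and Scarb2 in CPM (axes from 0) against Spearman's rho between level and exon length across genes of the same library; each point is a library, coloured by dose. Replicates 05 and 18 at 100 mg/kg/d and vehicle replicate 15 are labelled and have the 3 lowest rho; they are the 3 lowest libraries for Lrp1, while vehicle replicate 15 is at 76.8 CPM for Scarb2, above most libraries.

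Lrp8 (ENSRNOG00000013064, chromosome 5, 122563453 to 122631352, plus strand) encodes a receptor of apolipoprotein E and reelin. Its mean was 97.5 ± 16.1 CPM (SD, n = 5) at 300 mg/kg/d and 98.3 ± 24.2 CPM (SD, n = 3) in vehicle, a log2 fold change of -0.01 (95% interval -0.33 to 0.31, adjusted p = 0.988 by edgeR). Vehicle replicate 01 was at 126 CPM and replicates 08 and 15 at 84.3 and 84.4 CPM; without replicate 01 the value was 0.21, still uncalled. For 100 mg/kg/d Lrp8 was at 62.4, 74.1 and 98.0 CPM in replicates 05, 18 and 19, so the libraries that stood apart were again the low ones. The log2 fold change there was -0.33 (95% interval -0.69 to 0.03, adjusted p = 0.294 by edgeR), and -0.02 without replicates 05 and 18. It was called without replicate 19 (-0.53, adjusted p = 0.0281). Against 11 mg/kg/d, the 3 libraries of 100 mg/kg/d were all lower, as for 17% of all genes in one direction or the other, with a log2 fold change of -0.44 (adjusted p = 0.112).

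Vldlr (ENSRNOG00000027491, chromosome 1, 224814377 to 224845920, plus strand) encodes a receptor of triglyceride-rich lipoproteins and reelin, and had between 223 and 489 counts per library. Its 3496 exon bases share 349 with an unnamed gene on the other strand, ENSRNOG00000069446, and the library kit does not mark strand, so reads within that shared stretch cannot be told apart. The mean was 20.5 ± 2.42 CPM (SD, n = 5) at 300 mg/kg/d and 18.2 ± 4.33 CPM (SD, n = 3) in vehicle, with a log2 fold change of 0.17 (95% interval -0.22 to 0.56, adjusted p = 0.772 by edgeR). Over the 4 doses the log2 fold change lay between 0.12 and 0.17, and every dose overlapped vehicle. The lowest library of all was vehicle replicate 01, at 14.4 CPM, and the highest was replicate 17 at 11 mg/kg/d, at 25.6 CPM.

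Scarb2 (ENSRNOG00000002225, chromosome 14, 15558236 to 15609813, plus strand) was the steadiest of the 5 across libraries, with a highest value 1.62 times its lowest, against 6.33 times for Scarb1. It averaged 73.4 ± 9.26 CPM (SD, n = 5) at 300 mg/kg/d and 76.3 CPM (n = 3, 75.7 to 76.8) in vehicle, a log2 fold change of -0.06 (95% interval -0.26 to 0.14, adjusted p = 0.872 by edgeR). In the 100 mg/kg/d libraries it was at 55.3, 59.6 and 63.9 CPM in replicates 05, 18 and 19, below all vehicle libraries, where 15% of all genes had groups that did not overlap. The log2 fold change there was -0.36 (SE 0.108, edgeR adjusted p = 0.0966), and -0.27 without replicates 05 and 18 (adjusted p = 0.381). It was called in DESeq2 (adjusted p = 0.0303), without replicate 19 at 100 mg/kg/d (0.0123) and without replicate 13 at 300 mg/kg/d (0.0433).

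Against 11 mg/kg/d, Scarb2 fell at 100 mg/kg/d, with a log2 fold change of -0.38, an SE of 0.108 and an edgeR adjusted p of 0.0485. This call was lost in 19 of 23 alternatives, among them without any 1 of the 3 libraries at 11 mg/kg/d, without replicate 05 or 18, and without any 1 vehicle library. Its adjusted p there ran up to 0.718, reached without both replicates 05 and 18.

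The make-up of the 5 transcripts differed between doses. In TPM, Scarb1 made up 77.4% ± 2.39 (SD, n = 3) of their sum in vehicle, 58.1% ± 1.68 (SD, n = 3) at 100 mg/kg/d and 48.6% ± 5.43 (SD, n = 5) at 300 mg/kg/d. Lrp1 made up 24.7% ± 2.38 (SD, n = 5) at 300 mg/kg/d and 11.3% ± 2.00 (SD, n = 3) in vehicle, and Lrp8 made up 14.4% ± 2.01 (SD, n = 5) at 300 mg/kg/d and 6.01% ± 0.385 (SD, n = 3) in vehicle. The sum itself was 396 to 485 TPM at 300 mg/kg/d, against 879 to 1298 TPM in vehicle. On the same scale Lrp1 averaged 90.3 TPM at 100 mg/kg/d and 118 TPM in vehicle. Shares of a fixed sum move together by construction, and were not tested.

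**Figure D5:**
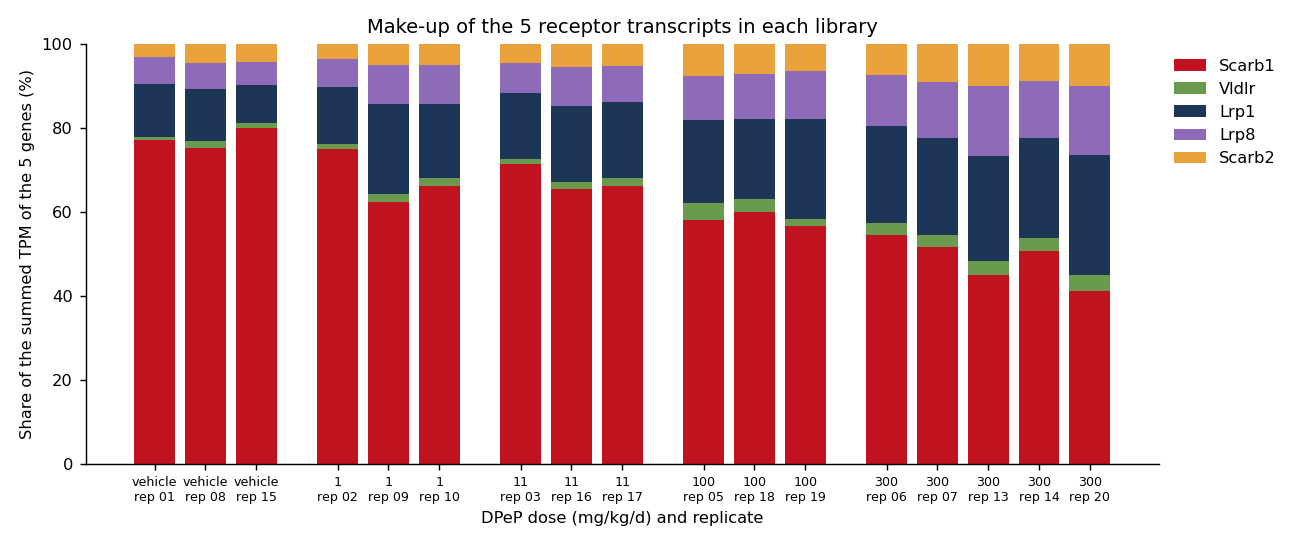
Share in % of each gene in the summed TPM of the 5 receptor genes, 1 bar per library, with dose in mg/kg/d and replicate under it. The Scarb1 part is 75.1% to 79.9% in vehicle, 62.4% to 75.1% at 1 mg/kg/d, 65.4% to 71.3% at 11 mg/kg/d, 56.5% to 59.9% at 100 mg/kg/d and 41.1% to 54.5% at 300 mg/kg/d.

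A ratio of counts within a library does not depend on how libraries are scaled. The log2 ratio of Scarb1 to Scarb2 counts was 2.30, 1.94, 1.60, 1.96 and 1.47 at 300 mg/kg/d in replicates 06, 07, 13, 14 and 20, against 4.03, 3.46 and 3.66 in vehicle replicates 01, 08 and 15. The groups did not overlap and their means differed by -1.86, with an exact two-sided permutation p of 0.0357, which is the smallest that 56 arrangements can give, and 0.143 adjusted over the 4 ratio tests. For 100 mg/kg/d the difference from vehicle was -1.24, with the smallest exact permutation p that 20 arrangements of 3 libraries against 3 allow (p = 0.1, and 0.2 adjusted). For the 2 relatives Vldlr and Lrp8, the log2 ratio differed from vehicle by 0.19 at 300 mg/kg/d (exact permutation p = 0.643) and by 0.44 at 100 mg/kg/d (exact permutation p = 0.4).

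Of the 10 other genes of the LDL receptor family that were listed, such as Lrp5, a co-receptor of Wnt signals, none was called at 300 or 100 mg/kg/d. Their median log2 fold change was 0.12 at 300 mg/kg/d, beside 0.010 over all genes, and -0.22 at 100 mg/kg/d, beside 0.047. Lrp5 had the highest mean level, 51.5 TPM, with a log2 fold change of 0.17 (SE 0.143, edgeR adjusted p = 0.687) at 300 mg/kg/d. In the slope over all doses Lrp2 and Sorl1 rose (adjusted p = 0.0424 and 0.0452 by edgeR), at 0.052 and 0.067 log2 units per unit of log2(dose + 1). Both were named after their values were seen, and their calls were lost in 13 and 15 of 22 alternatives.

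None of 12 tested genes of other scavenger receptors was called at either high dose, with medians of 0.16 at 300 mg/kg/d and 0.020 at 100 mg/kg/d. Cd36 was also listed but matched no gene symbol, and Marco, with 78 counts over all libraries, was below the filter. Colec12, a collectin-like scavenger receptor, had the highest mean level of these, 82.9 TPM, and a log2 fold change of 0.09 (SE 0.117, edgeR adjusted p = 0.832) at 300 mg/kg/d. Pdzk1, an adaptor that holds the Scarb1 protein at the cell surface in rodent liver, had a log2 fold change of 0.28 at 300 mg/kg/d (SE 0.138, edgeR adjusted p = 0.391) and was chosen for its role, with its value known.

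Among 12 receptor chaperones, adaptors and degraders 1 rose at 300 mg/kg/d and none at 100 mg/kg/d. This was Sort1, sortilin, a sorting receptor that also binds lipoproteins, at 113 ± 10.2 CPM (SD, n = 5) at 300 mg/kg/d and 76.0 ± 3.27 CPM (SD, n = 3) in vehicle. Its log2 fold change was 0.57 (SE 0.117, edgeR adjusted p = 0.00851). Without vehicle replicate 15 the call was lost (adjusted p = 0.0684), as it was in a fit that held the sample code (adjusted p = 0.0506).

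Of 10 tested ligands, lipases and lipoprotein enzymes, 1 rose and 1 fell at 300 mg/kg/d. Lipg, endothelial lipase, which acts on the phospholipids of high-density lipoprotein, fell to 28.6 ± 3.49 CPM at 300 mg/kg/d (SD, n = 5) and was at 53.8 ± 8.26 CPM in vehicle (SD, n = 3). Its log2 fold change was -0.91 (SE 0.129, edgeR adjusted p = 0.000255), and it was called in all 23 alternatives, with adjusted p up to 0.00502. It was also the 1 gene of the list that fell at 100 mg/kg/d. Clu, clusterin, an apolipoprotein that is also a Sertoli cell marker, rose by 0.84 (SE 0.151, edgeR adjusted p = 0.00288).

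No gene of the 11 tested for lysosomes and the handling of taken-up cholesterol was called at 300 or 100 mg/kg/d, with medians of -0.082 and -0.20. Npc2, which hands cholesterol out of lysosomes, had a log2 fold change of -0.33 at 300 mg/kg/d (SE 0.101, edgeR adjusted p = 0.105), and was called in 4 of 23 alternatives. Soat1, which esterifies cholesterol for storage, fell in the slope over all doses (adjusted p = 0.0174 by edgeR), by 0.041 log2 units per unit of log2(dose + 1); it too was named after its value was seen, and its call was lost in 1 of 22 alternatives, with the sample code as a covariate.

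The genes whose level followed each receptor most closely over the 17 libraries were ranked by Pearson's r of log2 CPM among 14475 genes with a symbol and a mean of at least 1 CPM. For Scarb1 they were Aldh1l1, a folate enzyme (r = 0.97), Lhcgr, the receptor of luteinizing hormone (r = 0.96), Entpd5 (r = 0.96), Stc2, a secreted stanniocalcin (r = 0.96), and Lipg (r = 0.96). For Lrp1 they were Cep250, Notch1, Cacna1g, Cdh23 and Inpp4a, with r of 0.91 to 0.95, and for Lrp8 Tgfbr3, Srgap3, Slc41a1, Epg5 and Kcnh1, with r of 0.92 to 0.94. For Scarb2 they were Pigs, Cul4a, Vps35l, Arsb and Zfp523, with r of 0.89 to 0.94. Vldlr had no close follower, with a highest r of 0.76 for Ms4a6a.

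Among the receptors themselves, Lrp1 and Lrp8 had an r of 0.90, Lrp8 and Scarb2 0.78, and Scarb1 and Lrp1 0.56, while Scarb1 and Vldlr had -0.33. These libraries share dose groups, depth and the length relation described above, so the values are descriptions.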

How the data were processed

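PolyA-selected RNA was sequenced from 17 fetal testis libraries. The submitters' processing notes name Trimmomatic 0.36, STAR 2.5.2b, Subread 1.5.2 with featureCounts, and the build mRatBN7.2; for the gene model release and the strand setting nothing was found in the labels. The deposited files hold raw counts per gene with exon lengths, per the file headers; a deposited table of the whole series with 47125 rows holds the same counts (0 differences) and gave the gene symbols. The 92 spike-in rows, 0.608% to 1.37% of counts, were left out.

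Groups were compared with edgeR 4.0.16 in R 4.3.3 (TMM, filterByExpr by group, quasi-likelihood F test, all 17 libraries in 1 fit), with Benjamini-Hochberg adjustment over all 18005 genes. SE was taken as the absolute log2 fold change divided by the root of F; for log2 CPM the prior count was 2. DESeq2 1.42.0, RLE scaling, no filter, the compared groups alone, the sample code as a covariate, each library left out and replicates 05 and 18 left out were tried. The fits were tested on simulated data. For 300 mg/kg/d against vehicle they called 43.3% of 67 genes changed 1.5-fold, 88.1% of 67 changed 2-fold and 100% of 66 changed 4-fold. Simulated counts were drawn for each gene on its own around its vehicle mean. They held none of the mitochondrial and length differences between the real libraries, where the shares called may differ. All 17 libraries were grouped by their titles. Members, gene lists and tests were chosen with earlier results of these data known. Named list genes are up to 3 called at 300 mg/kg/d per list, or the 2 with the highest mean TPM where none was called. Not all genes that this rule names are described. Of the genes named outside it, Hsd3b1, Pdzk1, Lrp2, Sorl1, Soat1 and Cpe are marked in the text as chosen with their values known.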

Additional observations from a re-analysis of the deposited data

Results flagged for a closer look

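Replicate 13 at 300 mg/kg/d lay far above the other 4 libraries of its dose for Lrp8 and Scarb2. For Lrp8 it was at 126 CPM, and the gap to the next library was 0.769 of the range of the group. For Scarb2 it was at 89.7 CPM, with a gap of 0.815 of the range, against a critical value of 0.71 for 5 libraries. In all, 8 measures were examined at this dose, and chance alone marks about 1 in 20. Without this replicate Scarb2 remained uncalled at 300 mg/kg/d.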

How the results depend on the processing

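No paired analysis was possible because the groups share no replicate numbers; the sample code, which libraries of several groups share, was used as a covariate instead. Of 800 values of the 5 receptors under alternatives, 735 kept their direction and side of the threshold, 25 lost a call, 13 gained one and 27 changed sign, none of these a called value. Scarb1 at 300 and 100 mg/kg/d against vehicle and its slope kept their calls in all alternatives run, at -2.05 to -1.76, -1.73 to -1.42 and -0.25 to -0.23. Changed signs of uncalled values are given next; their cause was not tested. Without replicates 05 and 18 at 100 mg/kg/d the log2 fold change was -0.34 for Vldlr and 0.091 for Lrp1 at 100 mg/kg/d, -0.011 for Scarb2 at 1 mg/kg/d and -0.25 for Lrp1 at 300 against 100 mg/kg/d. With the sample code it was -0.0024 for Scarb2 at 11 mg/kg/d, 0.0070 for Vldlr at 100 against 11 mg/kg/d and -0.043 for Scarf2 at 300 mg/kg/d. With 1 library left out, values against vehicle ran from -0.34 to 0.11 (Lrp1), -0.13 to 0.21 (Lrp8), -0.068 to 0.085 (Scarf2), -0.34 to 1.17 (Afp) and -1.26 to 4.46 (Alb) at 300 mg/kg/d, from -0.058 to 0.32 (Vldlr) at 100 mg/kg/d, from -0.11 to 0.32 (Vldlr) and -0.028 to 0.079 (Scarb2) at 11 mg/kg/d, and from -0.028 to 0.026 (Scarb2) at 1 mg/kg/d. Vldlr ran from -0.12 to 0.22 at 300 against 100 mg/kg/d and from -0.17 to 0.23 at 100 against 11 mg/kg/d.

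With 1 library left out, the log2 ratio of Scarb1 to Scarb2 differed from vehicle by -1.99 to -1.71 at 300 mg/kg/d, where 7 or fewer libraries cannot give an exact permutation p under 0.05 (0.0571 to 0.0952). That of Vldlr to Lrp8 differed by -0.16 to 0.47. The count of all genes called, 432 at 300 mg/kg/d, was 746 in DESeq2, 835 in a fit of the compared groups, 270 with the sample code, 869 without replicates 05 and 18, and 212 to 755 with 1 library left out. At 100 mg/kg/d, 274 became 904, 45, 73 without replicates 05 and 18, and 93 to 4250. At 11 mg/kg/d, 0 became 26 in DESeq2, 19 with no filter, 10 in the compared groups, 1 with the sample code, 19 without replicates 05 and 18, and 0 to 19. At 1 mg/kg/d, 0 became 1 with no filter, 3 in the compared groups, and 0 to 1. For 300 against 100 mg/kg/d, 1 became 1310 in DESeq2 (512 higher and 798 lower), 225 with no filter, 0 in the compared groups, with the sample code or without replicates 05 and 18, and 0 to 5872. For 100 against 11 mg/kg/d, 854 became 2215, 2 in the compared groups, 163 with the sample code, 0 without replicates 05 and 18, and 0 to 5886. For the slope, 1030 became 586 with the sample code, 1711 without replicates 05 and 18, and 746 to 1503. In the 3 comparisons with 100 mg/kg/d the highest count came without its replicate 19. The lowest with 1 library left out came without vehicle replicate 15 for 300 mg/kg/d and without replicate 18 for 100 mg/kg/d, each against vehicle. Under RLE scaling, 24 of the 25 genes named as closest to a receptor stayed among its 5 closest, and without replicates 05 and 18 at 100 mg/kg/d 13 of the 25 did.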
